A study of Mus musculus with 6 samples.

Results

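The 38 genes described here encode the transporters and enzymes that carry glucose to pyruvate, exchange pyruvate and lactate, and oxidise pyruvate in the tricarboxylic acid cycle. They were taken by gene symbol from the 46603 genes of the count tables, and 38 of 38 symbols matched 1 Ensembl gene each. RNA had been sequenced from primary enamel organ cells of the lower incisors of C57BL/6 mice. Stim1/2 knockout mice (DKO, replicates 1, 3 and 4) were set against wild-type mice (WT, replicates 1, 2 and 3). STIM1 and STIM2 are the calcium sensors of the endoplasmic reticulum that start store-operated calcium entry, which is the process the series addresses in ameloblasts, the enamel-forming cells. Age, sex and the means of gene deletion are not given in the labels, nor is it said that each library came from its own animal, so any p-value speaks for the spread among these 6 libraries and no further.

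Glycolysis splits glucose into pyruvate in the cytosol and yields a small amount of ATP without oxygen. Lactate dehydrogenase turns pyruvate into lactate and back, and monocarboxylate transporters carry lactate and pyruvate across membranes. The pyruvate dehydrogenase complex commits pyruvate to the mitochondrial cycle, and pyruvate dehydrogenase kinases switch that complex off by phosphorylation. Several steps can be run by more than 1 isozyme, each from its own gene, and isozymes differ in regulation and affinity. In the mouse incisor the enamel organ holds secretory and maturation ameloblasts beside the supporting epithelium, and ameloblasts secrete matrix and move ions at a high energy cost.

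The libraries held 18609759 to 22829411 gene counts. Levels between libraries are given as counts per 1e6 after TMM scaling (CPM), and levels between genes as the deposited FPKM, which are per length. Stim1 was at 125 ± 18.1 CPM in DKO and 422 ± 65.1 CPM in WT, and Stim2 at 122 ± 15.8 CPM in DKO and 261 ± 42.6 CPM in WT (SD, n = 3 each). Residual reads of both genes were thus present in the DKO libraries. Xist exceeded 100 CPM in 3 libraries (DKO 1, and among WT the first and the second) and did not exceed 1.22 CPM in the others, so each group mixed sexes. The first principal component separated the genotypes and held 42.0% of the variance. Summed over 7 ameloblast markers, the enamel organ's defining cells gave 137372 to 205085 CPM in DKO and 95834 to 162004 CPM in WT. Amelx and Ambn led that sum. Odam was lower in every DKO library (means of 11049 CPM in DKO and 15351 CPM in WT). Amtn was higher in every DKO library (means of 11176 CPM in DKO and 6497 CPM in WT), and the rest of the 7 overlapped. The 7 dental epithelium markers summed to 7448 to 7652 CPM in DKO and 9631 to 10928 CPM in WT, and 7 of 7 had a negative log2 fold change, of which 1 was called. The 8 mesenchyme markers summed to 10395 to 12905 CPM in DKO and 6678 to 11032 CPM in WT. The 6 endothelium markers summed to 235 to 251 CPM in DKO and 159 to 207 CPM in WT, and the 8 leukocyte markers to 301 to 450 CPM in DKO and 217 to 317 CPM in WT. The 9 skeletal muscle markers summed to 66.6 to 177 CPM in DKO and 84.1 to 330 CPM in WT, with WT 3 the highest library. Adipocyte markers were near 0, at 0.856 CPM or less. In such bulk tissue, fewer cells of a type and less RNA per cell cannot be told apart.

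The enzymes of central carbon metabolism were abundant in both genotypes. The 38 genes took 0.980% ± 0.0487 of all counts in DKO and 1.01% ± 0.0301 in WT (SD, n = 3 each). Averaged over the 6 libraries, 14 genes reached 100 FPKM, 15 lay between 10 and 100 FPKM, and 9 lay below 10 FPKM. Gapdh, glyceraldehyde phosphate dehydrogenase, headed the list at a mean of 1138 FPKM and ranked 54 among 46348 genes with an estimate in every library. Aldoa (aldolase A) followed at 752 FPKM and Pkm (pyruvate kinase) at 513 FPKM. The lowest were Slc2a3, a neuronal-type glucose transporter, at 1.76 FPKM and Pdk4, a pyruvate dehydrogenase kinase known for its induction by fasting, at 2.13 FPKM. Enzymes of the shared trunk of glycolysis from Gpi1 to Pkm lay at 183 FPKM or above, apart from the minor isozymes Aldoc and Eno2 and the phosphofructokinases, whereas no glucose transporter or hexokinase exceeded 31.5 FPKM. Every gene had counts in every library, with a minimum of 75.

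**Figure D1:**
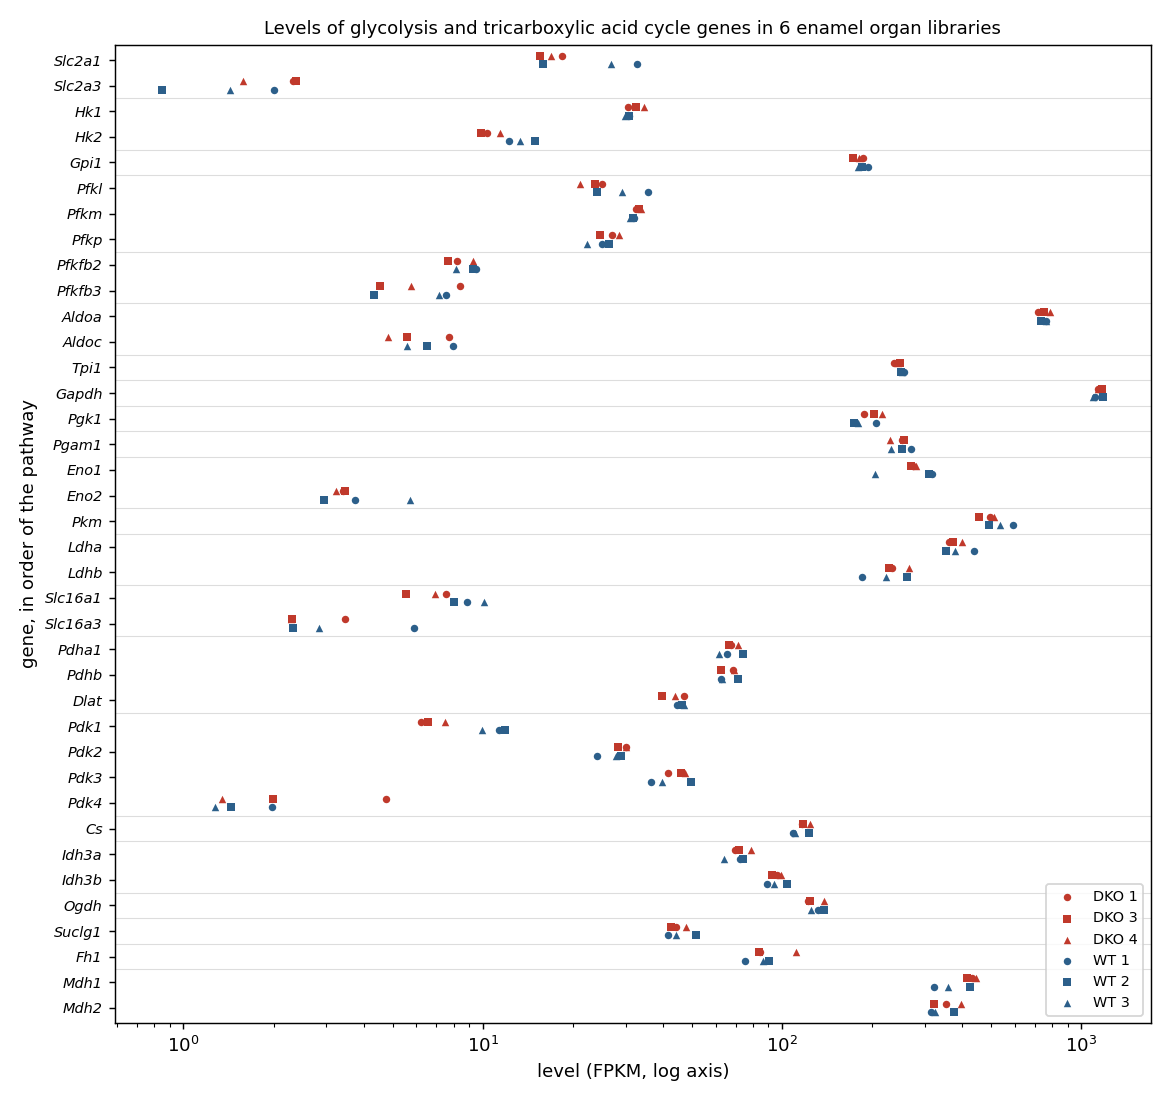
Levels of the 38 genes in FPKM on a log axis, in order of the pathway, with 1 point per library, DKO in red above WT in blue. Gapdh, Aldoa and Pkm sit at the top of the range, at means of 1138, 752 and 513 FPKM, and Slc2a3 and Pdk4 at the bottom, at 1.76 and 2.13 FPKM.

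Summed over its members, each block of the pathway was of like size in DKO and WT. The 19 genes of glycolysis summed to 3699 ± 50.5 FPKM in DKO and 3753 ± 145 FPKM in WT. The 8 genes of the tricarboxylic acid cycle summed to 1340 ± 87.5 FPKM in DKO and 1247 ± 119 FPKM in WT (SD, n = 3 each). These sums are led by the few most abundant genes, and the DKO and WT libraries overlapped in both.

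None of the 38 genes passed the test between DKO and WT. With edgeR's quasi-likelihood test and Benjamini-Hochberg adjustment over the 14721 genes tested, 0 of 38 had an adjusted p below 0.05, where the background over all tested genes was 1.04% (0.734% higher and 0.306% lower in DKO). At an unadjusted p below 0.05 there were 4, all lower in DKO (Pdk1, Hk2, Slc16a1 and Slc2a1), against a background of 18.0% in either direction and 9.37% lower. The DESeq2 Wald test called 2, Pdk1 and Hk2, against 6.00% of all genes, and limma on log2(FPKM + 1) called 0, against 0.577%. Library values of the genotypes did not overlap for 4 genes, all lower in DKO (Pdk1, Hk2, Slc16a1 and Pfkfb2), where 23.3% of all genes did not overlap and 11.8% were lower. In either direction both counts of 4 were below the background, and among genes lower in DKO they were close to it, so the counts set the members apart from other genes in neither way.

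The estimates were narrow for most of the pathway. Log2 fold changes (DKO over WT) ran from -0.65 to 0.50 with a median of 0.01, against -0.01 over all tested genes, and 21 were above 0 and 17 below. For 26 genes the estimate was under 0.15 in size, and for 25 the whole 95% interval lay within 0.5 of 0, which held for 50.9% of all tested genes. The median standard error was 0.11. For those 25 genes a difference larger than 0.5 in log2 lay outside the interval, while smaller ones in either direction remain within it.

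**Figure D2:**
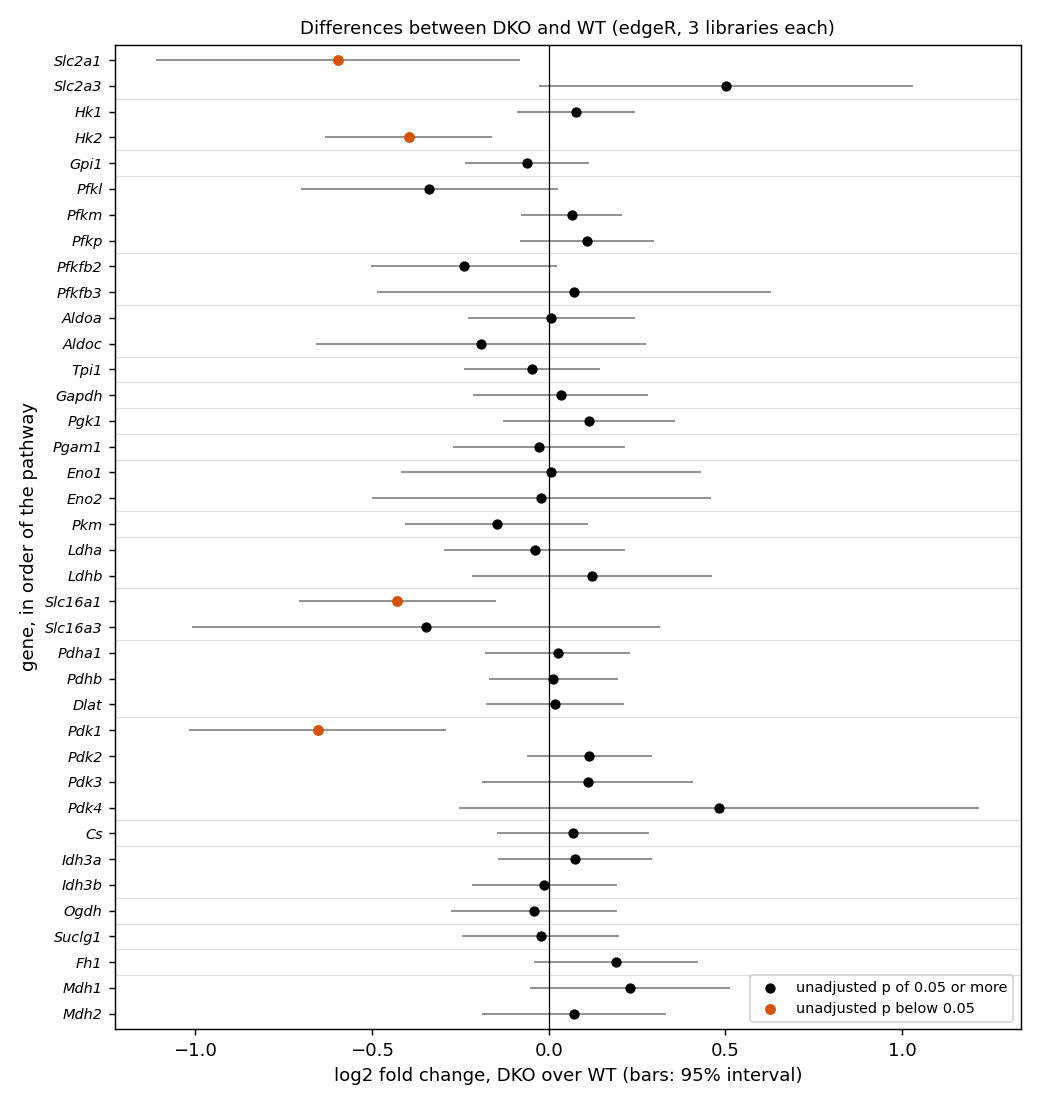
Log2 fold changes of the 38 genes, DKO over WT, in order of the pathway; bars are 95% intervals from edgeR. Orange points mark Slc2a1, Hk2, Slc16a1 and Pdk1, the 4 genes with an unadjusted p below 0.05, all to the left of 0; 0 genes had an adjusted p below 0.05.

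At the entry of glucose, Slc2a1 carried most of the transporter signal. Slc2a1, which encodes the facilitative transporter GLUT1 (chromosome 4, 119108711 to 119137983, plus strand, GRCm38), was at 44.6, 37.8 and 38.8 CPM in DKO 1, 3 and 4, against 77.4, 39.5 and 66.1 CPM in WT 1, 2 and 3. WT 1 and WT 3 stood well above all DKO libraries, while WT 2 lay within the DKO range. The log2 fold change was -0.60 (SE 0.22; adjusted p by edgeR = 0.220). It was -0.83 with an adjusted p of 0.0172 without WT 2, and -0.38 with an adjusted p of 0.410 without WT 1. Over the alternatives the adjusted p ran from 0.0170 to 0.564.

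Slc2a3, which encodes GLUT3, was at 8.48, 7.03 and 5.88 CPM in DKO, against 5.47, 3.63 and 5.97 CPM in WT. DKO 4 lay just below WT 3, so the genotypes overlapped by a single pair of libraries. The estimate for Slc2a3 was 0.50 in log2 (SE 0.23; adjusted p by edgeR = 0.300). Slc2a1 made up 88.8%, 86.7% and 91.5% of the summed FPKM of both genes in DKO 1, 3 and 4, against 94.2%, 94.94% and 94.95% in WT 1, 2 and 3. The share was lower in every DKO library, by 5.71 percentage points, with an exact two-sided permutation p of 0.1, the smallest that 3 against 3 allows.

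Hexokinase phosphorylates glucose and so traps it in the cell. Hk1, the constitutive form bound to mitochondria, was at 124, 137 and 138 CPM in DKO, against 125, 131 and 122 CPM in WT, and these overlap. Hk2, the regulated form (chromosome 6, 82725025 to 82774454, minus strand), was at 60.2, 57.5 and 58.6 CPM in DKO, against 69.4, 89.7 and 72.9 CPM in WT. Every DKO library lay below every WT library, and the 3 DKO values lay close together. The log2 fold change of Hk2 was -0.40 (SE 0.10, unadjusted p = 0.00500, adjusted p by edgeR = 0.115), with adjusted p from 0.0394 under DESeq2 to 0.331 over the alternatives.

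In shares, Hk1 made up 74.8%, 76.7% and 75.2% of the summed Hk1 and Hk2 FPKM in DKO 1, 3 and 4, against 71.7%, 67.2% and 69.2% in WT 1, 2 and 3 (exact two-sided permutation p = 0.1). The sum of both genes overlapped between genotypes, at 43.0 ± 2.58 FPKM in DKO and 44.0 ± 1.52 FPKM in WT (SD, n = 3 each). Gpi1, glucose phosphate isomerase, was at 294 ± 1.74 CPM in DKO and 306 ± 10.3 CPM in WT.

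Phosphofructokinase 1 is the main control point of glycolysis, and its RNA came from 3 isozyme genes, Pfkm, Pfkl and Pfkp. Pfkm, the muscle-type subunit, took 38.5%, 40.7% and 40.5% of their summed FPKM in DKO 1, 3 and 4, against 34.6%, 38.5% and 37.7% in WT 1, 2 and 3. The DKO libraries lay above the WT libraries, but DKO 1 and WT 2 were almost equal (exact two-sided permutation p = 0.1). In counts per kilobase of exon, DKO 1 at 60.4% lay below WT 2 at 60.9%, so the groups overlapped there, as they did in plain counts. Pfkl, the liver-type subunit, averaged 28.1% ± 2.31 in DKO and 34.4% ± 4.61 in WT, and Pfkp, the platelet-type subunit, 32.0% ± 1.97 in DKO and 28.7% ± 3.02 in WT (SD, n = 3 each). The split depended on the table: in counts per kilobase of exon, Pfkm averaged 61.7% in DKO and 57.5% in WT, Pfkl 25.3% in DKO and 30.8% in WT, and Pfkp 12.9% in DKO and 11.7% in WT.

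In counts, Pfkl was at 83.7, 81.7 and 79.5 CPM in DKO, against 131, 82.3 and 96.0 CPM in WT. WT 1 alone exceeded 100 CPM, and its value widened the WT spread to 25.2 CPM (SD). Pfkm was at 95.5, 103 and 101 CPM in DKO, against 95.4, 96.6 and 93.9 CPM in WT. Pfkp was at 83.8 ± 2.66 CPM in DKO and 77.8 ± 7.19 CPM in WT, although 5.58% of its exonic bases overlap Pitrm1 on the other strand and the library kit does not mark strand.

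Phosphofructokinase 2 enzymes make and break a sugar bisphosphate that is the strongest activator of phosphofructokinase 1. Pfkfb2 was at 10.8, 12.4 and 11.8 CPM in DKO, against 14.6, 12.7 and 14.1 CPM in WT. DKO 3 and WT 2 lay close, so the genotypes were only just apart (log2 fold change -0.24, SE 0.11; adjusted p by edgeR = 0.318). Pfkfb3, a form with high kinase activity, was at 39.0, 22.6 and 26.0 CPM in DKO, against 32.7, 20.2 and 30.4 CPM in WT. DKO 1 and WT 2 set its range, and the genotypes overlapped widely.

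The ranking of Pfkfb2 and Pfkfb3 also depended on the table used. In FPKM, Pfkfb3 averaged 42.0% ± 7.47 of both genes in DKO and 40.9% ± 7.95 in WT, but in counts per kilobase of exon it averaged 69.7% ± 7.23 in DKO and 65.4% ± 4.38 in WT (SD, n = 3 each). An annotated gene on the same strand, Gm29427, shares 17.4% of the exonic bases of Pfkfb2. Pfkfb4, of the same family but outside the 38 genes, was at 17.7, 16.2 and 20.1 CPM in DKO, against 11.9, 14.3 and 13.1 CPM in WT. Each DKO value was above each WT value, and the log2 fold change came to 0.45 (SE 0.12; adjusted p by edgeR = 0.130).

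The genes from aldolase to phosphoglycerate mutase had log2 fold changes of 0.11 or less in size, apart from Aldoc at -0.19. Aldoa was at 966, 1074 and 1087 CPM in DKO, against 1030, 1034 and 1046 CPM in WT, and it gave 99.2% ± 0.236 of aldolase FPKM in DKO and 99.1% ± 0.149 in WT. Aldoc, aldolase C, was at 12.5, 9.53 and 8.72 CPM in DKO, against 14.7, 10.4 and 10.03 CPM in WT. Aldolase was thus almost wholly of the A type in both genotypes.

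Tpi1, triose phosphate isomerase, was at 382 ± 18.7 CPM in DKO and 394 ± 2.93 CPM in WT. Gapdh, which makes the first NADH of the pathway, was at 1354 ± 63.7 CPM in DKO and 1322 ± 66.6 CPM in WT. Pgk1, the X-linked phosphoglycerate kinase that makes ATP, was at 333 ± 26.9 CPM in DKO and 307 ± 28.4 CPM in WT, and Pgam1, phosphoglycerate mutase, at 421 ± 33.5 CPM in DKO and 429 ± 35.4 CPM in WT (SD, n = 3 each). Gapdh and Pgk1 are often used to normalise other measurements, and their 95% intervals ran from -0.21 to 0.28 and from -0.13 to 0.36 in log2. Gapdh has 164 annotated near-identical copies in the genome, and the copies held at most 1.34% of its counts in any library.

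At the enolase step WT 3 stood apart from the other libraries. Eno1 was at 502, 527 and 522 CPM in DKO, against 593, 587 and 364 CPM in WT 1, 2 and 3. WT 3 was the lowest of all 6 libraries, while WT 1 and WT 2 were the highest. WT 3 also held 1500 counts for Eno1b and 1727 for Gm4735, a protein-coding gene and a processed pseudogene whose transcripts are 99.48% and 99.62% identical to Eno1. No other library held more than 5 counts for either of them. The deposited FPKM differed from the counts here. They put Eno1b at 15.6, 14.7 and 16.3 FPKM in DKO, against 17.5, 17.2 and 65.6 FPKM in WT, and Gm4735 at 9.05, 8.01 and 9.45 FPKM in DKO, against 9.66, 9.73 and 86.6 FPKM in WT. WT 3 was the highest library in both tables, but in FPKM the copies had a level in every library.

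Over 5 annotated copies of Eno1, counts were 3, 3 and 7 in DKO 1, 3 and 4, against 9, 4 and 3239 in WT 1, 2 and 3. Added to Eno1, they gave 503, 527 and 523 CPM in DKO, against 594, 588 and 506 CPM in WT. With the copies included, WT 3 lay among the DKO libraries, and the WT spread was 49.2 CPM, against 130 CPM without them (SD, n = 3). Reads assigned to the copies cannot be told apart from reads of Eno1 here. The log2 fold change of Eno1 was 0.01 (SE 0.18) and became -0.19 (edgeR adjusted p = 0.392) without WT 3, so its value in these data is uncertain. Eno2, neuronal enolase, was at 8.08, 7.59 and 7.76 CPM in DKO, against 6.96, 6.25 and 10.5 CPM in WT, and WT 3 was the highest library for it. With Eno1b and Eno3 counted in, Eno1 made up 91.5%, 92.0% and 92.4% of enolase FPKM in DKO, against 92.8%, 92.8% and 71.7% in WT.

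**Figure D3:**
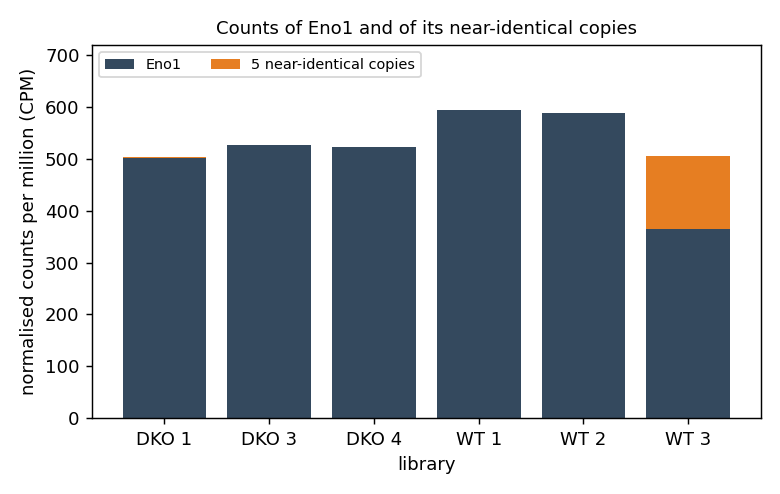
Counts of Eno1 (dark) and of its 5 near-identical copies (orange) per library, in TMM-scaled CPM, DKO on the left and WT on the right. The copies show as a visible block only in WT 3, where they held 3239 counts, and Eno1 with its copies reached 506 CPM there, against 364 CPM for Eno1 alone.

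Pyruvate kinase and lactate dehydrogenase closed the pathway without a difference beyond the spread. Pkm was at 1190, 1155 and 1252 CPM in DKO, against 1443, 1230 and 1312 CPM in WT, with an overlap between DKO 4 and WT 2 (log2 fold change -0.15, SE 0.11). The tables are per gene, so the splice forms M1 and M2 of Pkm were not separated. Ldha, the subunit that favours lactate formation, was at 544, 598 and 613 CPM in DKO, against 670, 554 and 578 CPM in WT.

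Ldhb, the heart-type subunit, was at 264, 268 and 300 CPM in DKO, against 205, 307 and 252 CPM in WT. Ldha made up 60.6%, 62.1% and 60.0% of lactate dehydrogenase FPKM in DKO 1, 3 and 4, against 70.3%, 57.4% and 63.0% in WT 1, 2 and 3. The DKO libraries lay close to each other, whereas the WT libraries spanned both sides of them (exact two-sided permutation p = 0.7). The ratio of Ldha to Ldhb was 1.56 ± 0.0695 in DKO and 1.81 ± 0.516 in WT (SD, n = 3 each).

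Of the 38 members and 57 other pathway genes tested, 1 was called, against 1.04% of all tested genes. It was Slc16a7, a lactate transporter outside the 38. Slc16a1 (chromosome 3, 104638668 to 104658462, plus strand) encodes MCT1, a widely expressed transporter of lactate and pyruvate. It was at 34.6, 26.7 and 32.2 CPM in DKO, against 41.1, 38.05 and 46.7 CPM in WT. Every DKO library was below every WT library, and the log2 fold change was -0.43 (SE 0.12, unadjusted p = 0.00772, edgeR adjusted p = 0.136; 0.0529 to 0.401 over the alternatives). Slc16a3, which encodes the lactate exporter MCT4, was at 6.02, 5.76 and 5.62 CPM in DKO, against 10.8, 4.70 and 6.58 CPM in WT.

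Slc16a7, which encodes MCT2, a high-affinity pyruvate and lactate transporter, was at 34.6, 52.1 and 40.2 CPM in DKO, against 16.4, 23.2 and 22.1 CPM in WT. All DKO libraries were above all WT libraries. It rose by 1.04 in log2 (SE 0.18; adjusted p by edgeR = 0.0499), at the edge of the threshold, and passed under 7 of 18 alternatives with adjusted p from 1.48e-05 to 0.204. Among the 6 settings with 1 library left out, it passed only without WT 2, with an adjusted p of 0.0448, and the highest, 0.155, came without DKO 4.

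With Slc16a7 and Slc16a8 counted in, Slc16a7 held a higher share and Slc16a1 a lower share in every DKO library than in any WT library. Slc16a7 took 51.0%, 68.7% and 60.8% of monocarboxylate transporter FPKM in DKO 1, 3 and 4, against 27.7%, 42.4% and 37.7% in WT 1, 2 and 3. Slc16a1 took 32.4%, 21.5% and 28.4% in DKO, against 42.6%, 43.5% and 48.1% in WT. Both shares had a p of 0.1 by the exact permutation test (two-sided). The groups were also apart in counts per kilobase of exon, where Slc16a7 averaged 28.7% in DKO and 13.4% in WT, and Slc16a1 56.4% in DKO and 72.4% in WT. Which of the transporters led in DKO depended on the table, since Slc16a7 led every DKO library in FPKM and Slc16a1 in counts per kilobase. Summed over Slc16a1, Slc16a3 and Slc16a7, the level was 24.1 ± 1.31 FPKM in DKO and 19.8 ± 1.43 FPKM in WT (SD, n = 3 each).

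**Figure D4:**
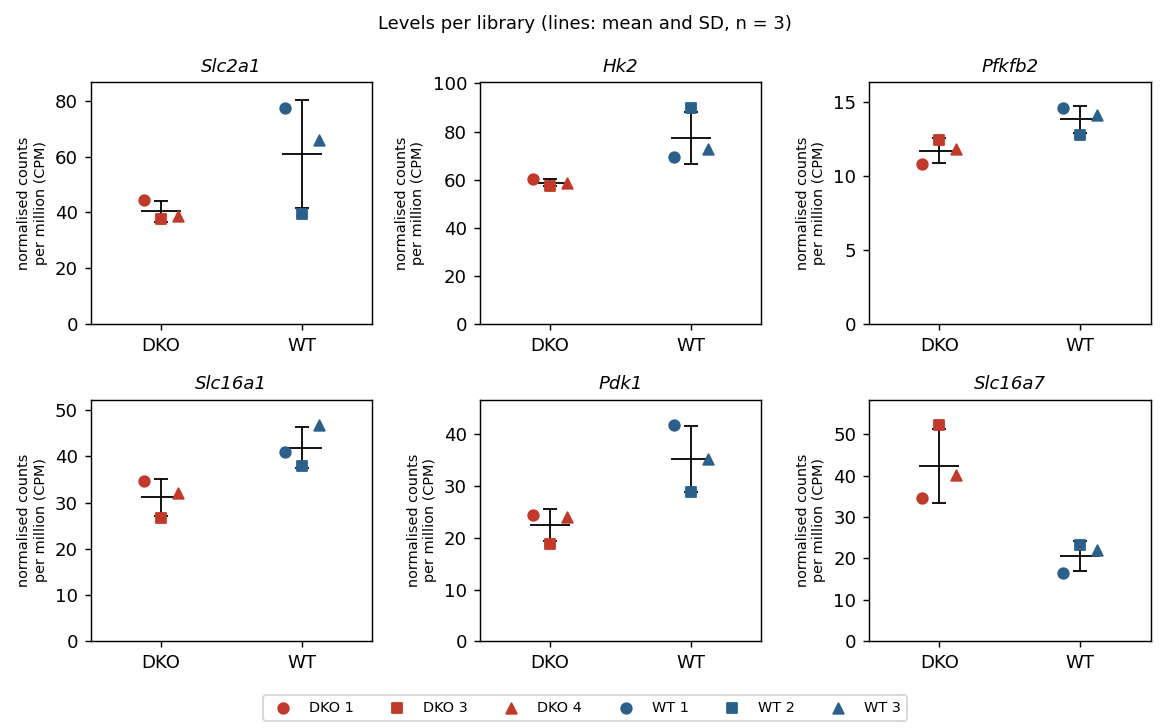
Levels in CPM per library of Slc2a1, Hk2, Pfkfb2, Slc16a1, Pdk1 and Slc16a7, DKO on the left and WT on the right, with the mean and SD (n = 3). For Hk2, Pfkfb2, Slc16a1 and Pdk1 all DKO points lie below all WT points, Slc2a1 overlaps through WT 2 at 39.5 CPM, and Slc16a7 is above WT in every DKO library.

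Pdha1, Pdhb and Dlat, the core of the pyruvate dehydrogenase complex, had log2 fold changes of 0.03, 0.01 and 0.02. Pdha1, the X-linked E1 alpha subunit, was at 135 ± 5.69 CPM in DKO and 133 ± 13.5 CPM in WT, although 16.2% of its exonic bases overlap Map3k15 on the other strand. Pdhb, E1 beta, was at 96.4 ± 2.83 CPM in DKO and 95.5 ± 8.28 CPM in WT. Dlat, the E2 acetyltransferase, was at 111 ± 4.99 CPM in DKO and 110 ± 10.3 CPM in WT (SD, n = 3 each). Both E1 subunits were expressed at nearly the same FPKM, with a ratio of Pdha1 to Pdhb of 1.02 ± 0.0396 in DKO and 1.02 ± 0.0411 in WT.

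The pyruvate dehydrogenase kinases held the member with the lowest fold change. Pdk1 (chromosome 2, 71873224 to 71903858, plus strand) encodes a kinase known for its induction in low oxygen. It was at 24.4, 18.9 and 24.0 CPM in DKO, against 41.7, 28.9 and 35.2 CPM in WT. All DKO libraries lay below all WT libraries, and the DKO level fitted by edgeR was 63.5% of the WT level. The log2 fold change was -0.65 (SE 0.16, 95% interval -1.02 to -0.29, unadjusted p = 0.00334, edgeR adjusted p = 0.0976), and the adjusted p was below the threshold under 4 of 18 alternatives, with a range from 0.00768 to 0.230. Without WT 2 it was 0.0460, and without DKO 4 it was 0.230.

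Pdk3, an X-linked kinase, was at 87.1, 102 and 101 CPM in DKO, against 78.1, 108 and 83.5 CPM in WT. Pdk2, the most widely expressed of the family, was at 62.6, 60.5 and 65.1 CPM in DKO, against 53.1, 61.1 and 59.7 CPM in WT. Neither stood apart by genotype. Pdk4 was at 12.6, 7.90 and 5.14 CPM in DKO, against 7.42, 5.91 and 5.01 CPM in WT, and DKO 1 was the highest library.

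Pdk1 made up 7.51%, 7.91% and 8.64% of the summed FPKM of the 4 kinases in DKO 1, 3 and 4, against 15.3%, 12.9% and 12.6% in WT 1, 2 and 3. The share was lower in all DKO libraries, by 5.58 percentage points, while Pdk3 held the largest share in both genotypes, at 53.6% ± 2.94 in DKO and 51.3% ± 2.38 in WT. The summed kinase level was 83.9 ± 2.04 FPKM in DKO and 81.6 ± 9.29 FPKM in WT (SD, n = 3 each). The DKO libraries lay inside the WT range in that sum.

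**Figure D5:**
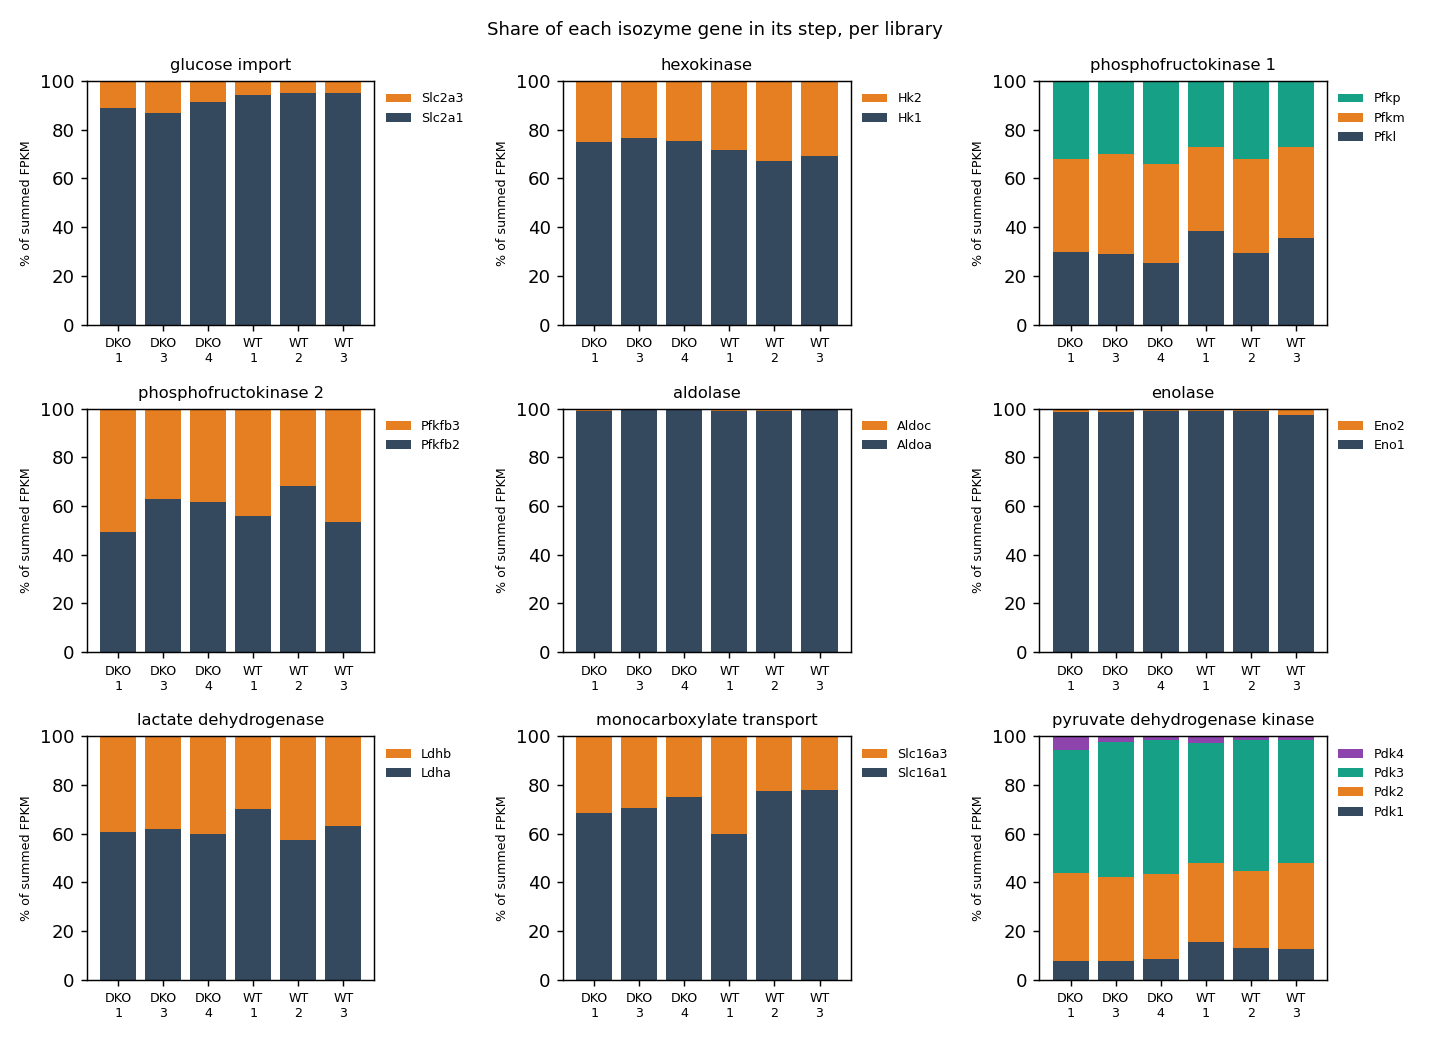
Share of each isozyme gene in the summed FPKM of its step, in percent, for 9 steps and 6 libraries, DKO on the left of each panel and WT on the right. The Slc2a1 share is lower, the Hk1 and Pfkm shares are higher and the Pdk1 share is lower in every DKO library than in any WT library; the panels of aldolase (Aldoa and Aldoc) and enolase (Eno1 and Eno2, with Eno1b and Eno3 left out) are almost wholly Aldoa and Eno1.

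Over the 9 steps with more than 1 listed isozyme, 14 shares were tested, counting 1 share for a step of 2 genes. The groups did not overlap for 4, namely Slc2a1, Hk1, Pfkm and Pdk1. Each of these had an exact two-sided permutation p of 0.1, and 0.35 after Benjamini-Hochberg adjustment over the 14. No such count was taken for shares of other genes, so the 4 have no background of their own. Over all tested genes, 23.3% did not overlap in CPM. With 3 libraries per group the exact test cannot reach 0.05, so none of the shares could pass. In counts per kilobase of exon, and in plain counts, 3 shares did not overlap (Slc2a1, Hk1 and Pdk1). Per kilobase the Hk1 share averaged 61.3% in DKO and 53.4% in WT, and the Pdk1 share 4.59% in DKO and 7.75% in WT. Without WT 2 the count of shares that do not overlap was 7. A smaller group is more easily apart from the other, so this count is not like the 4 above.

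None of the 8 genes of the tricarboxylic acid cycle passed the test. Cs, citrate synthase, was at 362 ± 14.7 CPM in DKO and 345 ± 27.4 CPM in WT. Idh3a and Idh3b, the catalytic and a regulatory subunit of NAD isocitrate dehydrogenase, were at 188 ± 13.5 and 146 ± 3.47 CPM in DKO and at 179 ± 15.4 and 147 ± 15.3 CPM in WT. Ogdh, the E1 subunit of the calcium-sensitive oxoglutarate dehydrogenase complex, was at 541 ± 40.9 CPM in DKO and 557 ± 33.4 CPM in WT (SD, n = 3 each). None of these 4 log2 fold changes exceeded 0.08 in size.

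Among the steps after oxoglutarate, Fh1, Mdh1 and Mdh2 had log2 fold changes of 0.19, 0.23 and 0.07, and none passed the test. Suclg1, the shared subunit of succinyl-CoA ligase, was at 64.2 ± 3.44 CPM in DKO and 65.2 ± 7.65 CPM in WT. Fh1, fumarase, was at 144, 146 and 169 CPM in DKO, against 122, 148 and 132 CPM in WT, and WT 2 lay above DKO 1 and DKO 3. Mdh1, the cytosolic malate dehydrogenase, was at 523, 510 and 548 CPM in DKO, against 399, 525 and 423 CPM in WT. WT 2 again lay within the DKO range, and the log2 fold change was 0.23 (SE 0.12; adjusted p by edgeR = 0.368). Mdh2, the mitochondrial form, was at 451 ± 35.5 CPM in DKO and 429 ± 46.3 CPM in WT, and the ratio of Mdh1 to Mdh2 was 1.21 ± 0.0817 in DKO and 1.09 ± 0.0572 in WT.

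A further 69 genes of the pathway, its regulators and its side branches were listed beside the members, and 57 passed the filter on low counts. Of these, 1 was called (Slc16a7, higher), and 9 had an unadjusted p below 0.05, with 5 higher and 4 lower in DKO. Over all tested genes these shares were 1.04% and 18.0%, so neither count set the listed genes apart. Suclg2, the GTP-forming subunit of succinyl-CoA ligase, was at 64.7, 70.0 and 76.9 CPM in DKO, against 56.5, 53.6 and 51.6 CPM in WT. The genotypes did not overlap, and the estimate was 0.39 in log2 (SE 0.08; adjusted p by edgeR = 0.0765), while its ATP-forming counterpart Sucla2 gave 0.10 (SE 0.10).

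Idh2, the mitochondrial NADP isocitrate dehydrogenase, was at 59.7, 57.4 and 61.6 CPM in DKO, against 66.7, 66.5 and 67.6 CPM in WT, a log2 fold change of -0.17 (edgeR adjusted p = 0.211). Pdpr, a regulatory subunit of pyruvate dehydrogenase phosphatase, had a log2 fold change of -0.24 (adjusted p = 0.210). Gapdhs, the sperm-type paralog of Gapdh, was at 0.853, 0.510 and 0.588 CPM in DKO, against 1.40, 1.55 and 2.14 CPM in WT. The genotypes did not overlap at this low level, and the log2 fold change was -1.37 (SE 0.33; adjusted p by edgeR = 0.102, and 0.0479 to 0.775 over the alternatives). Dld and Pdhx of the pyruvate dehydrogenase complex, Idh3g of isocitrate dehydrogenase, and Dlst and Ogdhl of the oxoglutarate dehydrogenase step had log2 fold changes of 0.01, 0.12, -0.06, 0.03 and 0.10.

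Slc2a1, Hk2, Pdk1 and Ldha are textbook targets of hypoxia-inducible factor, but not the only ones among the 38 genes. Over all 38 the median log2 fold change was 0.01, with 21 above 0 and 17 below. A further 12 hypoxia-response genes outside glycolysis were read beside them. Of the 12, 4 had a positive log2 fold change, and the median was -0.07. Vegfa, a vascular growth factor, gave 0.53 and Adm, adrenomedullin, 0.40, whereas Car9, a carbonic anhydrase, gave -0.60, with unadjusted p of 0.015, 0.038 and 0.031. Vegfa and Adm were higher in every DKO library and Car9 lower. These 3 were picked from the 12 by their values. Over all tested genes, 18.0% had an unadjusted p below 0.05 by edgeR, and 23.3% did not overlap. Adm and Car9 were at low levels, with means of 6.19 and 2.46 CPM in DKO and 4.68 and 3.72 CPM in WT. The lowest adjusted p of the 12 was 0.174, for Vegfa (edgeR).

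The stretches of 250 bases before the RefSeq start are shown for the 4 genes with an unadjusted p below 0.05, and for Ldha for comparison. They were searched for ACGTG, a form of the core of the hypoxia-response element. Sequences are from RefSeq on GRCm38.p6, written on the strand of the gene, with ACGTG or its reverse complement CACGT in capitals. They lie at chr4:119108495-119108744 (plus strand) for Slc2a1, chr6:82774455-82774704 (minus) for Hk2, chr3:104638414-104638663 (plus) for Slc16a1, chr2:71872974-71873223 (plus) for Pdk1 and chr7:46845554-46845803 (plus) for Ldha.
Slc2a1: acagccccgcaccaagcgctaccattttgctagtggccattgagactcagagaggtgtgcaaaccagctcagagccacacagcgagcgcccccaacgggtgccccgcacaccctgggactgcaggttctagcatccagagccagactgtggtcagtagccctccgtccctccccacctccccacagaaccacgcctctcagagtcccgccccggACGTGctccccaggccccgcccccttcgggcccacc
Hk2: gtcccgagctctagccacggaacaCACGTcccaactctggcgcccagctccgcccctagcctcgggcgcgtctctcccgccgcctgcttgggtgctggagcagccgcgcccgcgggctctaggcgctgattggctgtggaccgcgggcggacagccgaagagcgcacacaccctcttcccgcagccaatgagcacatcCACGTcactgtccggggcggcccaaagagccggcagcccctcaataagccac
Slc16a1: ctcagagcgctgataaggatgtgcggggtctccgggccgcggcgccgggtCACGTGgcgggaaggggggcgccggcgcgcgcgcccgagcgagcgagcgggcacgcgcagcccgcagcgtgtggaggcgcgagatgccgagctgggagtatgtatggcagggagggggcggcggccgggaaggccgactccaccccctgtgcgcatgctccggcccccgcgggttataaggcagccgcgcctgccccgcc
Pdk1: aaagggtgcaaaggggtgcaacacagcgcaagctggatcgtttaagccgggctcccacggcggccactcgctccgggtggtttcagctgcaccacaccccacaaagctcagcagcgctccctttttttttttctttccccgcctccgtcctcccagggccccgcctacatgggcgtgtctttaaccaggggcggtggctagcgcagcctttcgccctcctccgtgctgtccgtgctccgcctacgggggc
Ldha: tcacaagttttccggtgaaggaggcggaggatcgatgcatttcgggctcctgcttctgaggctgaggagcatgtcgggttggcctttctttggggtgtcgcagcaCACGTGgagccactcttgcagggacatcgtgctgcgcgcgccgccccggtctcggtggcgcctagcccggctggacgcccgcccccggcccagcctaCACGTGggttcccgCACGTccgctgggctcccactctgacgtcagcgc
ACGTG or CACGT was present in the windows of Slc2a1, Hk2, Slc16a1 and Ldha and not in that of Pdk1. Another form of the core, GCGTG, was not searched for and can be read in the Pdk1 window among others. Where CACGTG appears, both strands hold ACGTG and the 2 matches overlap. CACGTG is also the letters of an E-box, and the matches in Slc16a1 were all of this kind. The window of Ldha held the most matches of the 5 genes shown. Its log2 fold change was -0.04 (SE 0.11), and whether matches relate to fold changes was not tested. Of the 36 members with a promoter entry, 15 (41.7%) held ACGTG or CACGT in the first entry of the gene, against 16.6% of 27025 genes. Counting any entry of a gene, as 12 members had more than 1, 17 members (47.2%) held it, against 18.5% of all genes. The 27025 genes were not matched to the members in level or base composition, and the difference in shares was not tested. A match of letters is a description and not a binding site.

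The WT libraries varied more than the DKO libraries for most of the pathway. The coefficient of variation between libraries was higher in WT than in DKO for 29 of 38 genes, with medians of 5.59% in DKO and 10.2% in WT. The share over all tested genes is not given here, so this count does not set the pathway apart from other genes. WT 1 was the highest library for 11 genes and the lowest for 10, and WT 2 was the highest for 10. The summed dental epithelium markers, lower in every DKO library, and the summed endothelium markers, higher in every DKO library, moved with genotype as did Pdk1, Hk2, Slc16a1 and Slc16a7, and their part in those differences was not tested.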

How the data were processed

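RNA of 6 libraries was measured with a TruSeq v2 kit, which does not mark strand, per the labels' protocols. The deposited counts are whole reads per Ensembl gene, not normalised, with 1 table for each library. The deposited FPKM values carry the gene-table columns of Cufflinks, per the file headers. Trimmomatic 0.32, Cufflinks 2.2, HTSeq and GRCm38 are named without a role, per the submitters' processing notes. The treatment of reads that match several places, which bears on Eno1 and Gapdh, the aligner and the annotation release are all not given in the sources used here.

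Positions (1-based), biotypes and transcripts were read from GENCODE vM21 (GRCm38), in which 46005 of the 46603 genes were found. It may differ from the authors' release. Symbols came from the FPKM tables for 46406 genes and from an Ensembl table for 192. Near-identical copies were annotated genes whose transcript matched a member by blastn 2.17.0 at 90% identity or more over at least 80% of the copy.

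The test between DKO and WT was edgeR's quasi-likelihood test (version 4.0.16, R 4.3.3) with TMM scaling, filterByExpr, no covariate, Benjamini-Hochberg adjustment over all 14721 tested genes and a threshold of 0.05. It was first tested on simulated data. Isozyme shares are a gene's percent of its step's summed FPKM, with exact two-sided permutation tests. Total counts were 18609759 to 22829411 per library. Counting error is larger for genes with few counts, down to 75 in a library for the members, and was not estimated per gene. Taken over genes together, libraries of a group differed from each other beyond sampling noise in every pair (chi-square over its degrees of freedom at least 13.4).

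The members and gene lists were chosen with earlier results of these data known. Named are all 38 members and, of 69 other pathway genes, those called, those with at least 5% of the FPKM of a step that holds members, and the 6 with the smallest p. Vegfa, Adm, Car9 and the Eno1 copies were named after their values were seen. Other scalings were the size factors of DESeq2, the total count, the upper quartile, and TMM with the 50 most abundant genes left out. Filters were none, or a mean count of 50. Other models were a block by replicate number, an Xist term (libraries over 100 CPM), each library left out, the Wald test of DESeq2 1.42.0, and limma-trend 3.58.1 on log2(FPKM + 1) and on log2(FPKM + 0.1), for genes at 1 FPKM in 3 libraries or for all genes above 0. For shares, counts per length, plain counts, all isozymes of a step, and members with their copies were tried.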

Additional observations from a re-analysis of the deposited data

How the results depend on the processing

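Of the 38 members, 22 kept the sign of their log2 fold change under all 18 alternatives. The other 16 changed sign under at least 1, and the largest of these in size was Slc16a3 at -0.35. Slc2a1, Hk2, Slc16a1, Pdk1, Pfkfb2 and Slc16a7 kept theirs. The 4 scalings tried moved the median of all genes by at most 0.049. Differences inside the intervals, splice forms, and reads shared between Eno1 and its copies are beyond what 3 libraries per group and per-gene tables resolve.

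The number of genes changed was 153. It was 554 without the low-count filter, 71 with the Xist term, 866 with the DESeq2 Wald test, 77 with limma at either pseudocount and 11 with limma on all genes, and ran from 21 (without DKO 4) to 335 (without WT 2) when 1 library was left out. Of the members 0 were called, but 1 without the filter (Pdk1), 2 with DESeq2 (Pdk1 and Hk2) and 0 to 2 when 1 library was left out (Pdk1 and Slc2a1 without WT 2). Of the other pathway genes 1 was called, against 0 with DESeq2 size factors, a mean count of 50, the Xist term and each limma setting, 2 without the filter, 3 with the DESeq2 Wald test, and 0 to 1 when 1 library was left out. Isozyme shares that did not overlap numbered 4, but 3 in counts per kilobase and in plain counts (without Pfkm). They numbered 5 with all isozymes counted (with Slc16a1), and 4 to 7 when 1 library was left out. A smaller group is more easily apart from the other, so the counts with a library left out are not like the rest.

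Deviations from the group means were correlated between DKO and WT libraries. Among pairs of unlike number, DKO 3 with WT 2 gave 0.25 and DKO 4 with WT 3 gave 0.19, while the rest ran from -0.24 to 0.04. No block by those pairs was fitted. Same-numbered libraries gave 0.19 for replicate 1 and -0.018 for replicate 3, and the labels do not say whether they share more than the number. With that number as a replicate block, 328 genes and 2 members (Pdk1 and Slc2a1) were called, and the log2 fold changes of Pfkfb3, Aldoa, Pgam1, Idh3b and Suclg1 became -0.080, -0.028, 0.044, 0.053 and 0.031.

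The cause of the sign changes was not tested. With total counts, Aldoa, Gapdh, Eno1, Pdha1, Pdhb, Dlat, Dld and Dlst were at -0.043, -0.015, -0.039, -0.021, -0.031, -0.027, -0.030 and -0.015. Upper-quartile scaling put Idh3b at 0.0097, and the Xist term put Aldoa at -0.025 and Pgam1 at 0.0082. With limma on log2(FPKM + 1), on either gene set, Pfkfb3, Aldoa, Dlat and Idh3b were at -0.026, -0.0016, -0.079 and 0.0041, and with a pseudocount of 0.1 at -0.029, -0.0016, -0.080 and 0.0042. The Pfkfb3 share differed by -1.64 points with all isozymes counted.

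When 1 library was left out, log2 fold changes ran from -0.023 to 0.067 for Aldoa, -0.35 to 0.010 for Aldoc, -0.019 to 0.098 for Dlat, -0.041 to 0.11 for Dld, -0.037 to 0.12 for Dlst, -0.19 to 0.12 for Eno1, -0.16 to 0.25 for Eno2, -0.0049 to 0.075 for Gapdh, -0.078 to 0.068 for Idh3b, -0.094 to 0.051 for Ldha, -0.0083 to 0.28 for Ldhb, -0.093 to 0.022 for Ogdh, -0.037 to 0.10 for Pdha1, -0.027 to 0.087 for Pdhb, -0.19 to 0.23 for Pfkfb3, -0.086 to 0.031 for Pgam1, -0.59 to 0.042 for Slc16a3 and -0.085 to 0.075 for Suclg1. Differences of shares ran from -0.022 to 0.21 points for Aldoa, -0.16 to 0.73 for Eno1, -5.72 to 0.71 for Ldha, -3.44 to 3.98 for Pfkfb3 and -6.40 to 2.58 for Slc16a1.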
